A study of Mus musculus with 9 samples.

Results

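Cholesterol synthesis in the hypothalamus was followed in Clic1 KO and WT mice through 7 genes, Hmgcs1, Sqle, Fdft1, Idi1, Cyp51, Dhcr7 and Insig1. The genes were chosen by name, as 6 enzymes of the pathway and the regulator Insig1, and all 7 were among the 14351 genes of the expression table. The adult brain makes its cholesterol locally, because plasma lipoproteins do not cross the blood-brain barrier, and both astrocytes and myelin-forming oligodendrocytes are known for strong expression of the pathway. Its enzymes convert acetyl-CoA to mevalonate, isoprenoids, squalene and then sterols. The transcription factor SREBP-2 raises their expression together when sterols in the endoplasmic reticulum fall, and Insig1 holds SREBP and its escort Scap in that membrane when sterols are plentiful.

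RNA of the hypothalamus was sequenced from male mice, 1 library per mouse, with 5 libraries in the KO group (replicates 2, 4, 6, 8 and 10) and 4 in the WT group (replicates 1, 3, 9 and 11). The KO mice lack Clic1, a chloride intracellular channel gene, in the whole body and, according to the methods, were on a CD-1 background and fed normal chow like their WT littermates, whereas the labels name the strain C57b/6J for both groups. Their age at tissue collection was not given in the sources used here. The labels also name frozen perigonadal fat in a treatment note. Replicate 10 is titled and labelled WT but its library name begins with K, as do those of the KO mice, and it was placed in the KO group.

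The values are normalized CPM (read counts scaled to a common library size, as the authors deposited them), and estimated totals were 5.45 to 20.2 M reads for KO and 7.25 to 11 M reads for WT libraries, with the largest total in KO replicate 10. This library stood apart. For 58.5% of all genes its value was beyond all of the other 8, against at most 21.8% for any other library. The members are therefore given with and without it. So are the other genes and list medians named below where leaving it out moved the value by over 1.5 times or changed a call. Clic1 itself averaged 1.33 ± 0.429 CPM (SD, n = 5) in KO mice, against 4.77 ± 0.868 CPM (SD, n = 4) for WT (log2 fold change -1.80, adjusted p = 0.0153 in limma), and it was 1.43 CPM in KO replicate 10. All 10 hypothalamic markers listed (among them Avp, Oxt, Pmch and Hcrt) were measured, and 3 of 10 adipocyte markers were (Plin4, Cidea and Pnpla2), with a summed level of 30.9 to 48.0 CPM in the KO libraries, against 36.9 to 41.2 CPM in those of WT. Adipoq, Plin1 and Lep were among the adipocyte markers that were not measured.

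The sequences before the start of Hmgcs1, Insig1 and Cyp51 are shown because sterol genes are known to be read together through short elements there: the sterol regulatory element bound by SREBP, searched as TCACNCCAC, and the CCAAT box (CCAAT) and GC box (GGGCGG) bound by its partners NF-Y and Sp1, with the E-box CACGTG added. RefSeq promoter windows on GRCm38.p6, from 250 bases before to 50 after each start, matched 5 of the 7 members (Hmgcs1, Insig1, Cyp51, Idi1 and Dhcr7) with 7 windows, 3 of them for Dhcr7. Capitals mark the letters of any of the 4 elements on either strand. Each stretch ends before the first annotated exon base of its gene, reads 5′ to 3′ on the strand of the gene, and holds no annotated exon.
Hmgcs1, chr13:119690101-119690350, plus strand: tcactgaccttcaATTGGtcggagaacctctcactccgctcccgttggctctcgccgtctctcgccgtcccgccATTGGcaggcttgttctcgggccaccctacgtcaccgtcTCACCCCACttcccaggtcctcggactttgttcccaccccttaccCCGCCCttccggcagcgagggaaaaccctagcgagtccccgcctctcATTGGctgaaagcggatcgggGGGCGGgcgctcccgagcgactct
Insig1, chr5:28071162-28071362, plus strand: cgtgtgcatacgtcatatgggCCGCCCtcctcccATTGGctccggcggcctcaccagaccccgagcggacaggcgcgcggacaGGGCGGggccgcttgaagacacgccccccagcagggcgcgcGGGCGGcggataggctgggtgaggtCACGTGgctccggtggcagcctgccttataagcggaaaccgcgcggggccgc
Cyp51, chr5:4104747-4104947, minus strand: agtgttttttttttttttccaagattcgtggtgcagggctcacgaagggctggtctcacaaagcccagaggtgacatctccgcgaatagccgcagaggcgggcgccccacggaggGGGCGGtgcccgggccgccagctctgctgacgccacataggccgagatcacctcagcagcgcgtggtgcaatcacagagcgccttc

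The sterol regulatory element in these exact letters was found in 1 of the 7 windows, that of Hmgcs1, beginning 137 bases before the start. It was found in 1.24% of all 32851 windows. The E-box was found in the windows of Insig1 and of 1 Dhcr7 start (7.15% of all windows). A CCAAT box was present for Hmgcs1 (4 matches), Idi1 (2), Insig1, Cyp51 and 1 Dhcr7 start (37.4% of all windows). A GC box was present in 6 of the 7 windows (35.7% of all windows). No match overlapped another. The CCAAT box of Cyp51, 1 CCAAT box and 1 GC box of Hmgcs1 lie in the windows outside the stretches printed. These are matches of letters and were not tested as binding sites.

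All 7 members were measured at 31.4 CPM or more in every library. Per kilobase of the longest coding transcript, mean levels over the 9 libraries were 83.1 ± 6.48 CPM (SD, n = 9) for Hmgcs1, 31.6 ± 1.66 for Insig1, 27.9 ± 2.66 for Fdft1, 26.9 ± 1.39 for Sqle, 22.0 ± 2.35 for Idi1, 22.0 ± 1.86 for Cyp51 and 15.3 ± 1.62 for Dhcr7. Hmgcs1 was above every other member and Dhcr7 below every other member in each library. Insig1 was above Fdft1 in 9 of 9 libraries, Fdft1 above Sqle in 7, Sqle above Idi1 in 8 and Idi1 above Cyp51 in 4, and the ranges of these neighbours overlapped. With the bases of all annotated exons as the length, Hmgcs1 stayed the highest and Dhcr7 the lowest, and Sqle moved to the sixth of the 7 (13.4 CPM per kilobase). Among all 21 sterol enzymes listed with Insig1, Hmgcs1 also had the highest level per kilobase with either length.

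The comparison of KO with WT mice asked whether loss of Clic1 goes with a change in these transcripts. None of the 7 members passed an adjusted p under 0.05 in limma (0 of 7), and 41 of all genes did (0.286%). One member, Hmgcs1, had an unadjusted p under 0.05 in limma, against 6.5% of all genes. With limma-voom on estimated counts 0 members passed. Without KO replicate 10, 0 members passed (0.606% of all genes), and with this library grouped as WT also 0 (0.0348%). On the log2(CPM + 0.1) scale the 7 differences lay between -0.17 and 0.07, and their 95% intervals between -0.35 and 0.22, which in percent is from -21.8% to 16.7%. The median of the 7 was -0.09, against 0.00089 over all genes, and it was -0.03 without KO replicate 10.

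**Figure D1:**
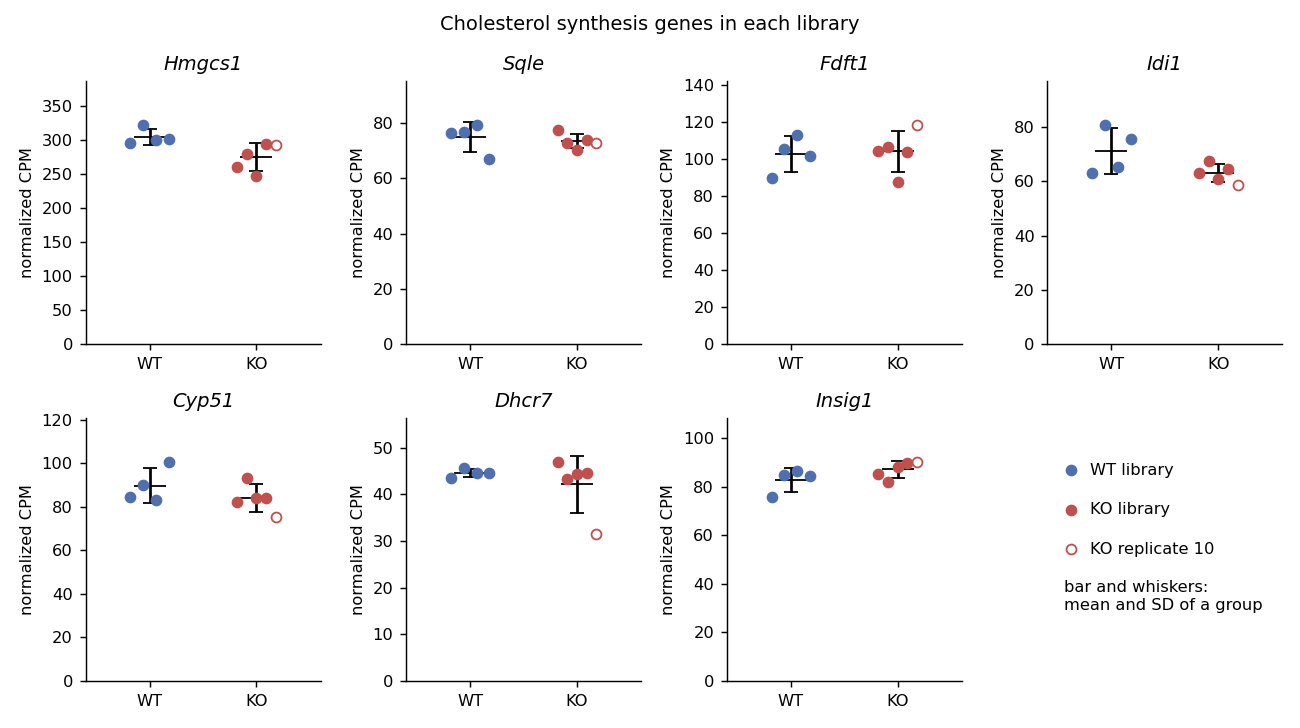
Normalized CPM of the 7 genes (vertical axes from 0) in WT and KO mice. Each point is a library, the open point is KO replicate 10, and bars with whiskers are the mean and SD of 4 WT and 5 KO libraries. The groups are separate for Hmgcs1 by a narrow margin, and they overlap for the other 6 genes. KO replicate 10 lies far below the other libraries for Dhcr7.

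Hmgcs1 (ENSMUSG00000093930) encodes the cytosolic HMG-CoA synthase, which joins acetoacetyl-CoA and acetyl-CoA on the way to mevalonate. Its position in GRCm38 is chr13:119690379-119708260 (plus strand). In KO mice (replicates 2, 4, 6, 8, 10) the values were 261, 279, 247, 294 and 292 CPM, and in WT mice (replicates 1, 3, 9, 11) they were 295, 322, 299 and 301 CPM. Every KO library was below every WT library, with the closest pair at 294.3 CPM (KO replicate 8) and 294.9 CPM (WT replicate 1). The groups were apart with KO lower for 1 of the 7 members and for 1.74% of all genes. KO mice averaged 275 ± 20.3 CPM (SD, n = 5), against 304 ± 12.1 CPM (SD, n = 4) for WT. On the log2 scale the fold change was -0.15 (95% interval -0.29 to -0.0053, or -9.86%), with an adjusted p of 0.759 in limma. The two-sided exact permutation test gave p = 0.0159, the smallest that 5 against 4 libraries allow. Without KO replicate 10 the log2 fold change was -0.17 (adjusted p = 0.238 in limma).

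Idi1 (ENSMUSG00000058258), the isomerase that makes dimethylallyl diphosphate for isoprenoid chains, is at chr13:8885501-8892451 (plus strand). KO replicates 2, 4, 6, 8 and 10 gave 63.1, 67.6, 60.9, 64.6 and 58.8 CPM, against 63.0, 80.8, 65.2 and 75.4 CPM in WT replicates 1, 3, 9 and 11. WT replicates 3 and 11 were above all KO libraries, whereas WT replicates 1 and 9 lay inside the KO range. The log2 fold change was -0.17 (95% interval -0.35 to 0.02, adjusted p = 0.788 in limma), and -0.14 without KO replicate 10. The exact permutation test gave p = 0.127.

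Fdft1 (ENSMUSG00000021273) encodes squalene synthase, which commits isoprenoids to the sterol branch, and is at chr14:63145150-63179578 (minus strand). By library, KO mice in the same order had 104, 107, 87.5, 104 and 118 CPM, while WT mice had 89.7, 105, 113 and 101 CPM. KO replicate 10 was the highest of the 9 and KO replicate 6 the lowest, so that the KO range covered the WT range. Its fitted log2 fold change was 0.02 (95% interval -0.18 to 0.22, adjusted p = 0.976 in limma). It was -0.03 without KO replicate 10 and -0.04 without WT replicate 1. The longest transcripts of Fdft1 and of its neighbour Ctsb, on the opposite strand, share 774 bases, so part of the reads cannot be assigned without strand, and the strand setting was not given in the sources used here.

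Sqle (ENSMUSG00000022351) encodes squalene epoxidase, a rate-limiting step after squalene, and is at chr15:59315077-59331192 (plus strand). For the KO libraries in the same order, values were 77.5, 72.9, 70.3, 74.0 and 72.9 CPM, and for WT 76.3, 77.0, 79.4 and 67.2 CPM. The lowest and the highest library were both WT. The log2 fold change was -0.03 (95% interval -0.17 to 0.12, adjusted p = 0.956 in limma). It was -0.02 without KO replicate 10 and 0.0020 without WT replicate 9. A difference beyond -11.4% or 8.83% lies outside this interval.

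Cyp51 (ENSMUSG00000001467), the lanosterol demethylase at the start of the steps that reshape the sterol ring, is at chr5:4081145-4104746 (minus strand). Across the KO libraries in the same order it was 82.4, 93.5, 84.1, 83.8 and 75.5 CPM, and across those of WT 84.6, 89.9, 83.2 and 101 CPM. KO replicate 10 was the lowest and WT replicate 11 the highest, and the remaining 7 libraries overlapped. Its fitted log2 fold change was -0.10 (95% interval -0.27 to 0.08, adjusted p = 0.863 in limma), and -0.06 without KO replicate 10. The longest transcript shares 166 bases with that of Akap9 on the opposite strand.

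Dhcr7 (ENSMUSG00000058454) encodes the reductase that makes cholesterol from 7-dehydrocholesterol, the enzyme deficient in Smith-Lemli-Opitz syndrome, and is at chr7:143823145-143848410 (plus strand). KO mice, in the same order, had 47.0, 43.4, 44.3, 44.6 and 31.4 CPM, and WT mice 43.6, 45.6, 44.5 and 44.5 CPM. Apart from KO replicate 10, the 8 libraries lay between 43.4 and 47.0 CPM. With all libraries the log2 fold change was -0.09 (95% interval -0.33 to 0.14, adjusted p = 0.892 in limma). Without KO replicate 10 it was 0.01 (95% interval -0.12 to 0.14, adjusted p = 0.980 in limma). The negative sign therefore rested on 1 library.

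Insig1 (ENSMUSG00000045294), the sterol-dependent anchor of the SREBP and Scap complex and itself an SREBP target, is at chr5:28071363-28078662 (plus strand). In the KO libraries, same order, it was 85.3, 82, 87.9, 89.9 and 90.3 CPM, and in those of WT 75.6, 84.9, 86.3 and 84.3 CPM. The 3 highest libraries were KO and the lowest was WT replicate 1, with overlap between the groups. The log2 fold change was 0.07 (95% interval -0.07 to 0.22, adjusted p = 0.866 in limma), and 0.06 without KO replicate 10.

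The spread within groups set the limit for these comparisons. The residual SD of the log2 values was 0.07 for Insig1, 0.08 for Sqle, 0.09 for Hmgcs1, 0.12 for Cyp51, 0.13 for Idi1, 0.15 for Fdft1 and 0.18 for Dhcr7. The median over the 5028 genes averaging 50 CPM or more was 0.12. Dhcr7 was both the least and the most variable of the members, with a coefficient of variation of 1.84% in WT and 14.6% in KO mice, or 3.46% in KO mice without replicate 10. Estimated reads per library ranged from 241 (Dhcr7) to 5914 (Hmgcs1), for which counting error alone gives at most 6.44% for Dhcr7 and at most 2.72% for Hmgcs1. The transcript of no member had a near-identical copy (95% identity or more, covering 30% or more of the shorter one) among the genes measured.

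The members did not rise and fall as a block across libraries. KO replicate 10 was the highest library for Fdft1 and Insig1 and the lowest for Idi1, Cyp51 and Dhcr7. WT replicate 3 was the highest for Hmgcs1 and Idi1. KO replicate 6 was the lowest for Hmgcs1 and Fdft1. The mean of the standardized log2 values of the 7 genes was 0.76 in WT replicate 3, 0.40 in WT replicate 9 and 0.26 in WT replicate 11, but -0.47 in WT replicate 1. In KO mice it was -0.06, 0.04, -0.68, 0.16 and -0.42 in replicates 2, 4, 6, 8 and 10. WT replicate 1 lay below 4 of the 5 KO libraries on this measure.

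**Figure D2:**
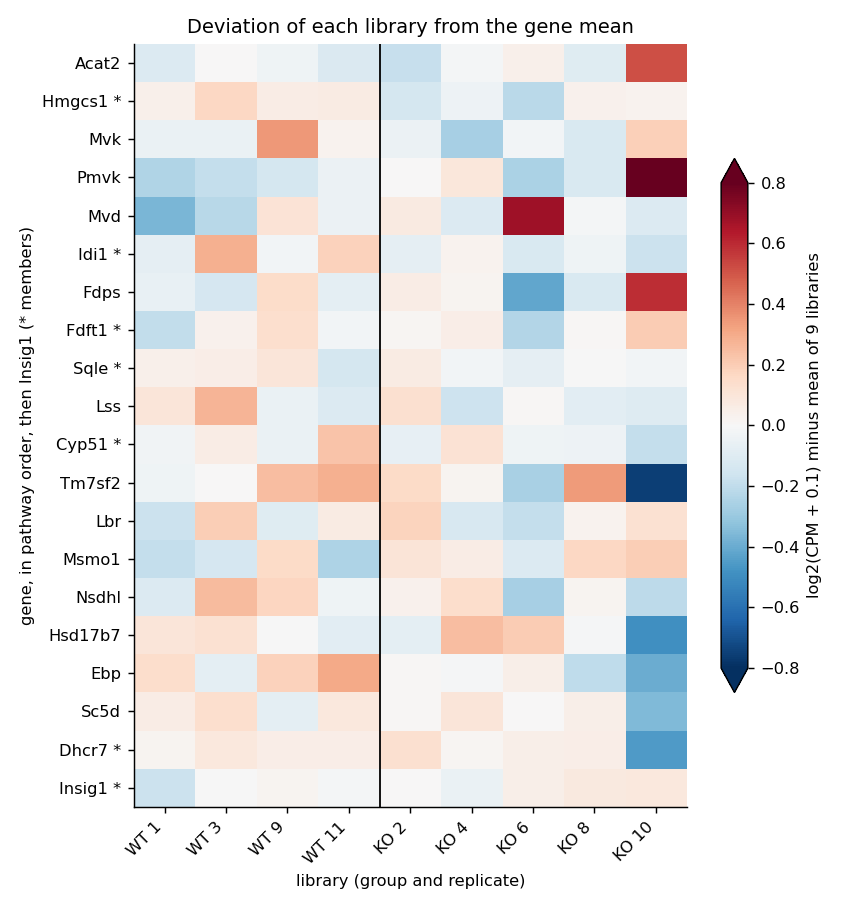
Deviation of log2(CPM + 0.1) from the mean of the 9 libraries (colour scale, log2 units) for 19 sterol enzymes in pathway order and Insig1 (rows) in 4 WT and 5 KO libraries (columns, divided by a line). The column of KO replicate 10 holds most of the strongest colours, with Acat2, Pmvk and Fdps above and Tm7sf2, Hsd17b7, Ebp, Sc5d and Dhcr7 below the mean.

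Apart from the members, 5 genes had the library profiles most like the mean standardized profile of the members, measured as the mean absolute difference over 9 libraries among the 12065 genes averaging 5 CPM or more (median of all, 0.815). They were Zfp267 (0.405), Rmi1 (0.431), ENSMUSG00000091474 (0.435), Galnt13 (0.454) and Necab1 (0.454). The members themselves lay between 0.516 and 0.843 from their own mean. None of the 5 was a sterol enzyme of the list, and their log2 fold changes were between -0.23 and -0.10 (between -0.15 and -0.07 without KO replicate 10), with adjusted p from 0.775 to 0.856 in limma.

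All 21 enzymes from acetyl-CoA to cholesterol were measured, 6 of them members. Of the 21, 0 passed an adjusted p under 0.05 in limma. Before adjustment, 2 had a p under 0.05 in limma, both lower in KO mice, Hmgcs1 among them, against 6.5% of all genes. Their log2 fold changes were positive for 8 and negative for 13, with a median of -0.09 (-0.06 without KO replicate 10). Msmo1, the methylsterol oxidase, had the opposite sign (log2 fold change 0.19, adjusted p = 0.788 in limma).

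**Figure D3:**
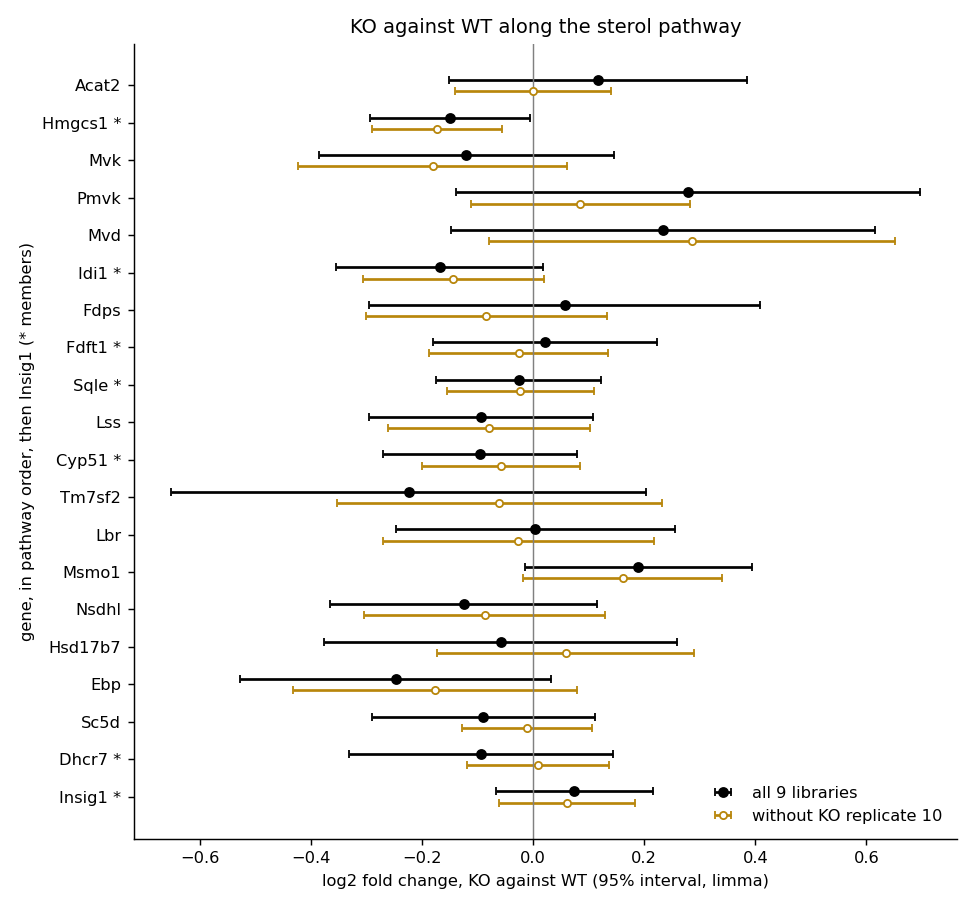
Log2 fold change of KO against WT with its 95% interval from limma (horizontal axis) for 19 sterol enzymes in pathway order and Insig1, members marked with an asterisk, with all 9 libraries (black) and without KO replicate 10 (open). The interval of Hmgcs1 lies below 0 in both fits before adjustment over all genes, and the intervals of the other genes plotted include 0.

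KO replicate 10 was above the other libraries for some steps of the pathway and below them for others. Its value was beyond all of the other 8 for 14 of the 21 enzymes, above them for 6 and below them for 8, and for 5 of the 7 members, against 58.5% of all genes. Relative to the mean of the other KO libraries it was higher by 0.97 (log2) for Pmvk, 0.70 for Fdps and 0.58 for Acat2. It differed by -0.82 for Tm7sf2, -0.58 for Hsd17b7, -0.51 for Dhcr7, -0.39 for Sc5d and -0.36 for Ebp. These genes were picked after their values were seen. The median size of this deviation over all genes was 0.29.

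The regulators around Insig1 showed small differences. Of 14 genes of the SREBP system, 0 passed an adjusted p under 0.05 in limma. An unadjusted p under 0.05 in limma was found for 2, Faf2 and Rnf139, against 6.5% of all genes. Faf2, which helps to extract ubiquitinated Insig1 from the membrane, averaged 79.8 CPM in KO mice, against 89.6 CPM for WT. Its log2 fold change was -0.17 (adjusted p = 0.633 in limma). The groups were apart with KO lower for 1 of the 14, Faf2, against 1.74% of all genes. Rnf139, a ubiquitin ligase of the endoplasmic reticulum, had a log2 fold change of -0.19 (adjusted p = 0.759 in limma, with an unadjusted p of 0.0527 without KO replicate 10), and Mbtps2, a protease that releases SREBP, of -0.16 (adjusted p = 0.803 in limma). Srebf2, which encodes SREBP-2, averaged 255 CPM in KO mice, against 269 CPM for WT (-0.08, adjusted p = 0.857 in limma), and Scap had -0.09 (-0.01 without KO replicate 10).

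Neighbouring lipid pathways were compared in the same fit, and 0 genes of any of them passed the threshold. Cholesterol uptake genes (11 of 12 measured) had a median log2 fold change of 0.04. Lrp8 (0.14), Mylip (-0.22) and Lipa (-0.10) had the smallest p, none under 0.05 before adjustment. Without KO replicate 10, Lipa was -0.01 and Lrp8 was 0.16, with an unadjusted p of 0.0468 and an adjusted p of 0.462 in limma. Export and turnover genes (12 of 13 measured) had a median of -0.09 (-0.05 without KO replicate 10), and those with the smallest p were Cyp7b1 (-0.20), Cyp27a1 (-0.35) and Lcat (-0.25). The 12 fatty acid synthesis genes had a median of -0.07 (-0.02 without KO replicate 10). Those with the smallest p were Acly (-0.09), Fads1 (-0.14) and Fads2 (-0.07). The groups were apart with KO lower for 2 of the 12, Acly and Fads1, against 1.74% of all genes. Fads1 was 233 CPM in KO replicate 10, and its log2 fold change was -0.04 without that library. Among 10 genes of the isoprenoid branches the median was -0.05, and Icmt (-0.09), Ggps1 (-0.15) and Coq2 (0.28) had the smallest p. With all 9 libraries, Icmt was the only 1 of the 10 with groups apart and KO lower, against 1.74% of all genes. Leaving out KO replicate 10 gave 2 of the 10, and the share over all genes was not computed for that setting. Without KO replicate 10, Ggps1 was -0.03 and Coq2 was 0.10.

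**Figure D4:**
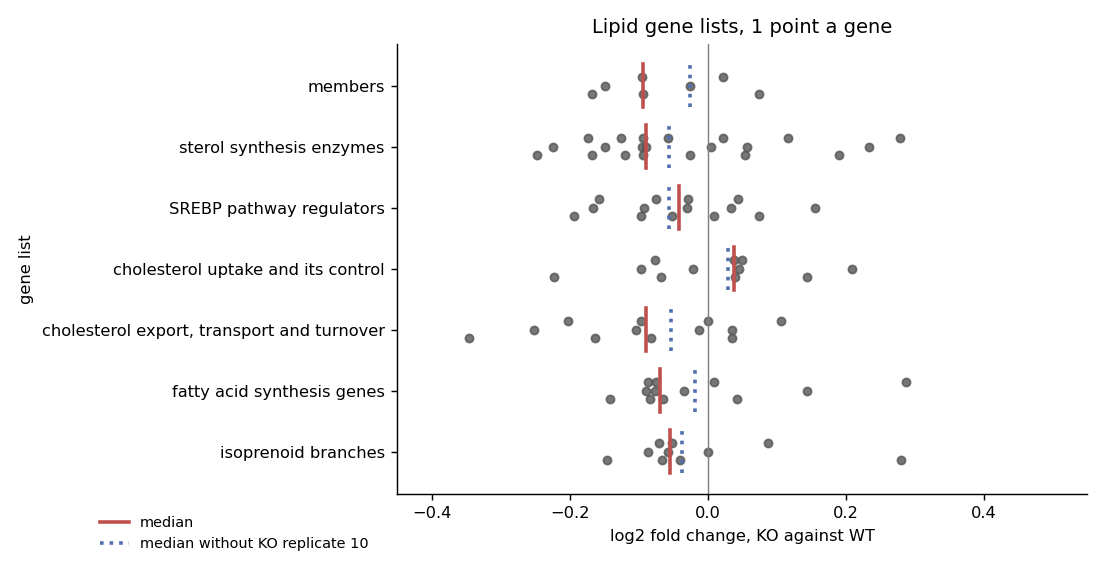
Log2 fold change of KO against WT (horizontal axis) for the members and 6 lists of lipid genes (rows), 1 point a gene. The solid line is the median of a list and the dotted line its median without KO replicate 10. All medians lie between -0.09 and 0.04, and no gene shown passed the threshold.

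Hmgcs1 lies in a stretch of chromosome 13 that holds genes past the threshold. Of 8 measured genes that start within 1 Mb of it, 2 passed an adjusted p under 0.05 in limma, against 0.286% of all genes. Within the same distance of the other 6 members, 0 of 5 to 17 genes did. Ccl28, a chemokine gene that starts 66.6 kb before Hmgcs1, averaged 6.24 ± 1.15 CPM (SD, n = 5) in KO mice, against 12 ± 0.839 CPM (SD, n = 4) for WT (log2 fold change -0.95, adjusted p = 0.0269 in limma). Tmem267, which starts 202 kb before it, averaged 18.9 ± 4.08 CPM in KO mice, against 34.8 ± 4.32 CPM for WT (-0.89, adjusted p = 0.0424 in limma). Both passed without KO replicate 10 and did not pass with it grouped as WT (adjusted p = 0.749 and 0.761 in limma). Nim1k, the nearest measured gene on the far side at 65.5 kb, had a log2 fold change of 0.02, and Paip1, 262 kb before Hmgcs1, of -0.06. The share of the neighbouring difference in that of Hmgcs1 was not tested.

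**Figure D5:**
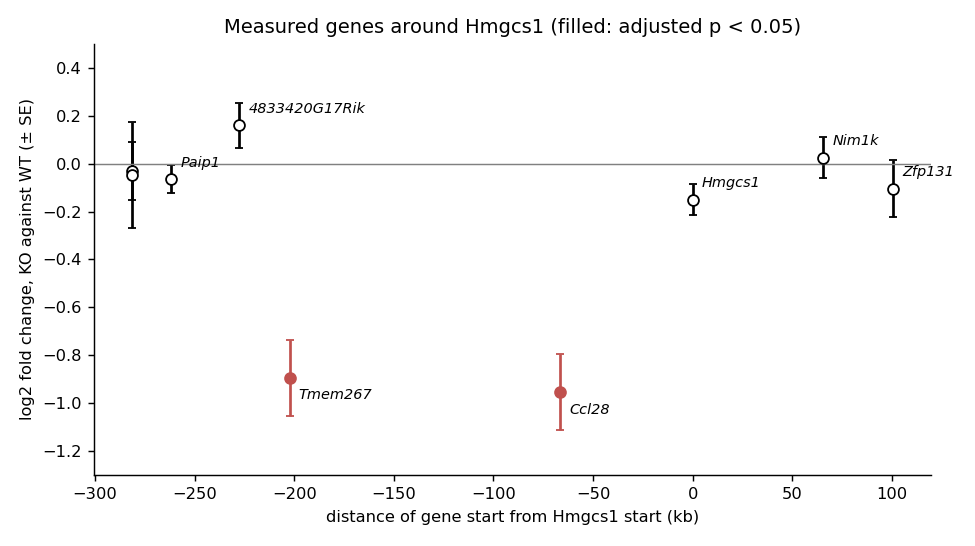
Log2 fold change of KO against WT with its standard error (vertical axis) for Hmgcs1 and 8 measured genes around it, by the distance of their starts from that of Hmgcs1 in kb (horizontal axis). Filled points passed an adjusted p under 0.05. Ccl28 and Tmem267 lie near -0.9, and Hmgcs1 and the others near 0. The 2 points at the left without a name are genes without a unique symbol.

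Because the tissue is a mixture, fewer cells of a type and less RNA per cell cannot be told apart in these values. Of 10 oligodendrocyte markers, 0 passed the threshold and 9 had a negative log2 fold change, with a median of -0.12 and summed levels of 3672 to 4161 CPM in the KO libraries, against 3916 to 4803 CPM in those of WT. Mbp alone had an unadjusted p under 0.05 (log2 fold change -0.22, adjusted p = 0.705 in limma). Of 9 astrocyte markers, 0 passed and 6 were negative, with a median of -0.07 and summed levels of 2548 to 2981 CPM in the KO libraries, against 2626 to 2872 CPM in those of WT. The 8 neuronal markers had a median of -0.03 (-0.01 without KO replicate 10). Their summed levels were 6116 to 6471 CPM in the KO libraries, against 6050 to 6681 CPM in those of WT. The 5 endothelial markers all had a positive log2 fold change, with a median of 0.19. Their summed levels did not overlap (178 to 201 CPM in KO libraries, 162 to 168 CPM in WT). With all 9 libraries the groups were apart for 0 of the 5 genes. Without KO replicate 10 they were apart with KO higher for 1, Flt1 (log2 fold change 0.17, adjusted p = 0.184 in limma). The share of all genes apart with KO higher was not computed. Flt1 made up 82.8 to 98.4 CPM of the KO sums and 81.3 to 88.3 CPM of the WT sums. Summed levels of the 10 hypothalamic markers also did not overlap (681 to 839 CPM in KO libraries, 618 to 668 CPM in WT). However, 5 of the 10 had a positive and 5 a negative log2 fold change, with a median of 0.0069 (0.12 without KO replicate 10). Avp passed the threshold (log2 fold change 0.90, adjusted p = 0.0027 in limma). With all 9 libraries it was the only 1 of the 10 with groups apart, and without KO replicate 10 there were 2, with KO higher. The share of all genes was not computed for this count either. Avp made up 189 to 255 CPM of the KO sums, against 96.0 to 123 CPM of the WT sums. Microglial markers (6 genes) had a median of -0.17 (-0.10 without KO replicate 10), with all 6 negative, precursor and newly formed oligodendrocyte markers (6 genes) of -0.01 (0.03 without KO replicate 10) and ependymal and tanycyte markers (8 genes) of 0.11, with 0 genes past the threshold in each of these and among the endothelial and neuronal markers. Gpr17 among the precursor markers (-0.32), Slco1a4 among the endothelial markers (0.36) and Agt among the astrocyte markers (-0.20) had an unadjusted p under 0.05 in limma. Over all genes this share was 6.5%. Alb was the 1 of 5 hepatocyte markers measured, at 0.132 to 3.30 CPM in the KO libraries, against 0.3 to 2.98 CPM in those of WT. The part of cell composition in the values of Hmgcs1 was not tested.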

How the data were processed

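Hypothalamic RNA of 5 KO and 4 WT mice was analysed, 1 library per mouse. Per the methods and the processing notes, the authors trimmed reads with Trimmomatic 0.38, aligned them to GRCm38.p6 with STAR 2.5.1a, estimated gene counts with RSEM 1.3.0 (Ensembl release 98), removed genes without a CPM of at least 1 in at least 5 samples and applied TMM with edgeR. The deposited signal is the resulting normalized CPM. Replicates were not pooled. The authors' second table holds fold changes and p-values of their own comparison, from which gene symbols alone were taken. In the normalized table, 1 column matched no sample and was not used.

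Values were fitted as log2(CPM + 0.1) with limma 3.58.1 in R 4.3.3 (intensity trend, condition as the only term, Benjamini-Hochberg adjustment over 14351 genes, threshold 0.05), because the table holds no counts for limma-voom as in the study. Fold changes on this scale understate those of low genes. The fit was tested on simulated data. Exact permutation tests were two-sided on mean log2 values (scipy 1.17.1). Library totals were estimated from the steps between values up to 2.5 CPM, of which 81.2% to 86.6% per library were whole reads within 0.03, so totals are approximate and counting errors cover counting only. Positions and lengths came from GENCODE mouse release 21 (GRCm38), copies from blastn 2.17.0. Nothing states whether the mice came from separate litters, so p-values measure the spread between these libraries.

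The members and lists were chosen with earlier results of these data known. Genes were named if they were members, Clic1, past the threshold or among the 3 smallest p of a list, past the threshold within 1 Mb of a member, or among the 5 most alike in profile. Srebf2, Scap, Nim1k, Paip1 and the genes of KO replicate 10 were added after their values were seen. Single values of some listed genes are not reported here. The fit was repeated with larger pseudocounts, without genes under a mean of 5 CPM, with other scalings, variance models and library weights, by limma-voom on estimated counts, with replicate 10 as WT and with each library left out.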

Additional observations from a re-analysis of the deposited data

Results flagged for a closer look

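In 14 groups of values (7 genes in 2 groups), 1 library lay far from the rest of its group, against 0.7 expected by chance. It was KO replicate 10 for Dhcr7, at 31.4 CPM, where the other 4 KO libraries were at 43.4 to 47.0 CPM. Its gap to the next library was 0.767 of the whole range of the group, above the critical value of 0.71 for 5 libraries. The same library had the lowest Cyp51 and Idi1 and the highest Fdft1 and Insig1 of the 9, within the limits of that test.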

How the results depend on the processing

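No paired analysis was possible because the sources used here do not say which KO and WT mice were littermates. Over 20 alternatives, 0 members passed the threshold in any of them, also at an adjusted p under 0.1, and of 140 comparisons for single members 133 kept the direction. The lowest adjusted p of any member in limma was 0.223, for Hmgcs1 with sample weights. The other 7 comparisons changed sign. Fdft1 was -0.069 with replicate 10 as WT, -0.03 without KO replicate 10 and -0.040 without WT replicate 1. Dhcr7 was 0.11 with replicate 10 as WT, 0.0020 with sample weights and 0.0083 without KO replicate 10. Sqle was 0.0020 without WT replicate 9. With 1 mouse left out at a time, Hmgcs1 ranged from -0.18 to -0.11, Idi1 from -0.22 to -0.10, Cyp51 from -0.13 to -0.04, Dhcr7 from -0.14 to 0.0083, Fdft1 from -0.040 to 0.082, Sqle from -0.078 to 0.0020 and Insig1 from 0.03 to 0.10.

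The count of 41 genes past the threshold became 27 among genes averaging 5 CPM or more, 135 with sample weights, 36 with limma-voom and 5 with replicate 10 as WT, and ranged from 18 to 87 with 1 mouse left out, with 87 without KO replicate 10, 27 without KO replicate 6, 25 without KO replicate 8, and 18, 19, 24 and 22 without WT replicates 1, 3, 9 and 11. At an adjusted p under 0.1 it was 55. The causes were not tested. The median of the 7 members was -0.02 with replicate 10 as WT.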
